A study of Mus musculus with 6 samples.

Results

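Id1, Id2, Id3 and Id4, together with Bmp4, Bmpr1a, Bmpr2, Smad1, Smad5 and Smad6 of the bone morphogenetic protein (BMP) pathway, were examined in tibialis anterior muscle, which lifts the foot, of castrated and sham-operated mice. These 10 genes, of 22180 measured, were chosen by gene symbol with the castrated-against-sham values already known, Id1 having stood out there. Each is represented by the brightest of its probe sets that name 1 gene, and each of the 10 has a single such probe set. The differences between castrated and sham samples are therefore given below as a description and not as a test of these genes.

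The samples came from male C57Bl/6 mice with no transgene or mutant allele named. The 3 sham mice had sham surgery and carry the feeding label fasted. The 3 castrated mice had their testes removed and carry the feeding label refed. Surgery was at 11 weeks of age, and the muscle was taken 7 weeks later, at 18 weeks. All mice were fasted overnight. By the series design some then stayed fasted and others had a 30 minute meal, whereas the protocol attached to every sample gives the meal to all, and a further 4 hours without food followed. Surgery and feeding label split the samples in the same way, so the effects of the 2 cannot be told apart in any value below. Total RNA came from about 25 mg of muscle. In such bulk RNA, fewer cells of a type and less RNA per cell cannot be told apart. RNA was hybridised to Affymetrix whole-transcript arrays, 1 per sample, and the number of arrays, not a read depth, limits the precision. The array medians over all genes lay between 5.40 and 5.47 on the log2 scale of the deposited values. Fibre genes were near the top of the scale, with the skeletal alpha-actin Acta1 between 13.5 and 13.6 and the fast myosin Myh4 between 13.5 and 13.6 on all arrays.

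BMPs are secreted factors that bring type I receptors such as BMPR1A and type II receptors such as BMPR2 together. The receptors phosphorylate SMAD1 and SMAD5, which join SMAD4, enter the nucleus and switch on target genes, among them Id1, Id2 and Id3 and the feedback inhibitor Smad6. Id proteins are helix-loop-helix proteins without a DNA-binding region that tie up E proteins and so hold back factors such as MyoD. In skeletal muscle, BMP signalling is known as a positive regulator of mass, and Id1 is also strongly expressed in blood vessel lining.

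The promoters of Id2, Id3 and Id4 are shown to set out what each holds of the motif by which SMAD1 and SMAD5 are known to bind, GGCGCC. The sequences are from RefSeq on build GRCm38.p6, 9 of the 10 genes, all but Id1, matched the table by symbol, and the 250 bases before the annotated start are printed on the gene's own strand with GGCGCC in capitals.
Id2, chr12:25096093-25096342, minus strand: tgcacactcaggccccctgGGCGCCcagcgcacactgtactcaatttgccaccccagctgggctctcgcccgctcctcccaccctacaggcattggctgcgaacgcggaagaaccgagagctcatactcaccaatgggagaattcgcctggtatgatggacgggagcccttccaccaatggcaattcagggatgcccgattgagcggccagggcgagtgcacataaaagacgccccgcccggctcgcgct
Id3, chr4:136143572-136143821, plus strand: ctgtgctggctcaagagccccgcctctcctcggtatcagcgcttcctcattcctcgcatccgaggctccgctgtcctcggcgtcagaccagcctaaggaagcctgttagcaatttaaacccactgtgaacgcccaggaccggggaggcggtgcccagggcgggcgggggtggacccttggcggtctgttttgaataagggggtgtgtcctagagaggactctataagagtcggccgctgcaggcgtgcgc
Id4, chr13:48260866-48261115, plus strand: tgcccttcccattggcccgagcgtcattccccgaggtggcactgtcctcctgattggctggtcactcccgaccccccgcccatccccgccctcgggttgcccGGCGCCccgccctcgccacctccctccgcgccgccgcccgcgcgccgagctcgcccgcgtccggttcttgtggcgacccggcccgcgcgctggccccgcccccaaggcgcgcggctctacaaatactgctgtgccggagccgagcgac

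The window of Id2 held 1 GGCGCC, beginning 231 bases before the start, and that of Id4 held 1, beginning 148 bases before it, while these letters are not in the window of Id3. The motif is its own reverse complement, so a single search covers both strands. Over all 32851 windows of the same length, of which some genes have several, 9.59% held it. Among the other genes it was in the windows of Bmpr1a and Bmpr2 and in 1 of the 3 windows of Smad5. The related letters GGAGCC, searched on both strands and not overlapping GGCGCC, occurred in the windows of Id2, Id3, Id4, Bmp4 and, 2 times, Smad6, in 1 window of Smad5, and in 26.0% of all windows. The SMAD element core CAGAC, searched on both strands, occurred 2 times in the window of Id3, in 1 window of Smad5 and in 42.2% of all windows. G and C made up 62.8% of the Id2 and Id3 windows and 75.6% of the Id4 window, against a median of 52.4%. A match is a description of the letters and not of binding.

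Id1 was higher in all castrated samples, and the other Id genes were not. The log2 level of Id1 (Entrez 15901) was 6.67, 6.41 and 6.44 in sham samples 1 to 3 and 7.03, 7.30 and 7.05 in castrated samples 1 to 3. The groups did not overlap, and the gap between the highest sham and the lowest castrated sample, 0.36, exceeded the range within either group, 0.26 in each. The mean went from 6.51 ± 0.14 to 7.13 ± 0.15 (SD, n = 3 each), a difference of 0.62 with a standard error of 0.12 in limma, or 1.54-fold with a 95% interval from 1.28 to 1.85. This difference ranked 43 of 22180 genes, counted from the largest rise. It lay between 0.54 and 0.70 with any 1 sample left out and was 0.66 after quantile normalization. Id1 was chosen with this difference known, so the difference may be overstated. The gap, interval, rank and leave-one-out range come from the same values and describe them without testing them.

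Id2 (Entrez 15902), whose protein restrains E proteins in many tissues, read 6.50, 6.48 and 6.65 in sham and 6.69, 6.66 and 6.22 in castrated samples. Castrated sample 3 was the lowest and castrated sample 1 the highest of all arrays, so the groups overlapped completely. Its difference was −0.02 with a 95% interval from −0.34 to 0.30, and turned to 0.01 after quantile normalization and to 0.13 without castrated sample 3. Id3 (Entrez 15903), which is often regulated together with Id1 in endothelium, read 6.99, 6.45 and 6.60 in sham and 6.50, 6.76 and 6.65 in castrated samples. Sham sample 1 stood highest and sham sample 2 lowest, so the sham samples enclosed the castrated ones. The difference was −0.04 with an interval from −0.38 to 0.29, and was 0.11 without sham sample 1. Id4 (Entrez 15904), the family member best known from the nervous system, read 5.33, 5.59 and 5.40 in sham and 5.40, 5.64 and 5.44 in castrated samples. In each group sample 2 was the highest, and the groups overlapped. Its difference was 0.05 with an interval from −0.21 to 0.31, and it turned to −0.02 without castrated sample 2. The intervals of these 3 genes reach upwards to 0.29 to 0.31, so rises up to these values lie within them. Larger differences can also go uncalled with 3 samples a group, as that of Id1 did.

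**Figure D1:**
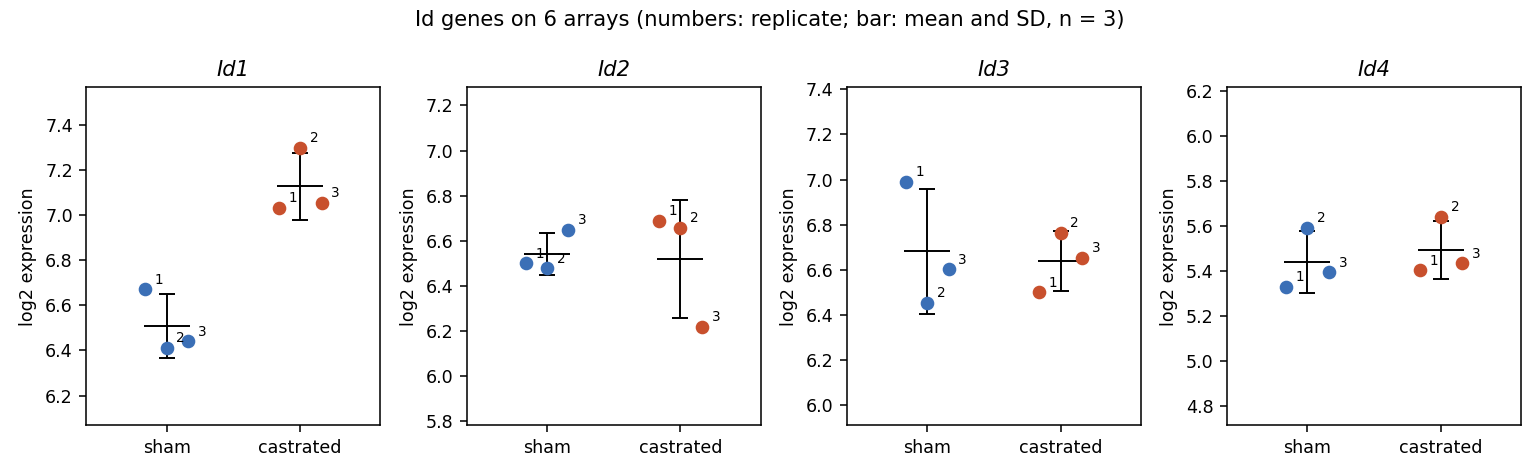
Deposited log2 expression of the 4 Id genes (y axis, each panel spanning the same height) in sham and castrated samples (x axis), with a numbered point per sample and the mean with SD (n = 3) as a bar. Only in the Id1 panel do the castrated samples, 7.03 to 7.30, lie clear of the sham samples, 6.41 to 6.67.

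The Id genes were also put on a common footing by centring each on its own mean over all arrays. This restates the values above and is not a second test. Id1 was chosen with its difference known, and Id2, Id3 and Id4 differed little between the groups. The departure of Id1 minus the mean departure of Id2, Id3 and Id4 was −0.20, −0.36 and −0.37 in sham and 0.24, 0.35 and 0.35 in castrated samples. The other Id genes shared no order of samples, since Id2 was highest in castrated sample 1, Id3 in sham sample 1 and Id4 in castrated sample 2.

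Of the pathway's upstream members, the ligand gene Bmp4 came closest to the pattern of Id1, by a small amount. Bmp4 (Entrez 12159) read 6.51, 6.75 and 6.76 in sham and 6.77, 6.98 and 6.78 in castrated samples. The groups did not overlap, but the gap between them was 0.014, far inside the range of 0.25 within the sham group. The difference was 0.17 with a standard error of 0.11 and a 95% interval from −0.09 to 0.42, and it fell to 0.08 without sham sample 1 and to 0.10 without castrated sample 2.

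Bmpr1a (Entrez 12166), the type I receptor, read 7.99, 7.98 and 7.99 in sham and 7.87, 8.24 and 8.18 in castrated samples. The sham samples were almost identical, and the castrated ones lay on either side of them. The difference was 0.11 with an interval from −0.16 to 0.37, and leaving out castrated sample 1 made it 0.22 and castrated sample 2 0.03. Bmpr2 (Entrez 12168), the type II receptor, read 11.03, 11.19 and 11.40 in sham and 11.26, 11.28 and 11.22 in castrated samples. Here the castrated samples lay inside the sham range. Its difference was 0.05 with an interval from −0.22 to 0.31, and it turned to −0.04 without sham sample 1.

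The signal-carrying and inhibitory SMADs had differences between −0.08 and −0.03. Smad1 (Entrez 17125) read 6.94, 6.83 and 6.90 in sham and 6.87, 6.72 and 6.85 in castrated samples, a difference of −0.08 with an interval from −0.30 to 0.14. It was −0.03 without castrated sample 2, the lowest array. Smad5 (Entrez 17129) read 7.03, 7.12 and 7.04 in sham and 7.14, 6.85 and 7.00 in castrated samples, a difference of −0.07 with an interval from −0.31 to 0.17. Castrated samples held both its highest and its lowest value, and without castrated sample 2 the difference was 0.0027. Smad6 (Entrez 17130), the inhibitor that BMP signalling induces along with Id1, read 6.03, 6.04 and 5.80 in sham and 5.98, 5.92 and 5.88 in castrated samples. Its difference was −0.03 with an interval from −0.27 to 0.21, with the castrated samples inside the sham range, and it turned to 0.0030 without sham sample 1 and to 0.011 without sham sample 2.

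**Figure D2:**
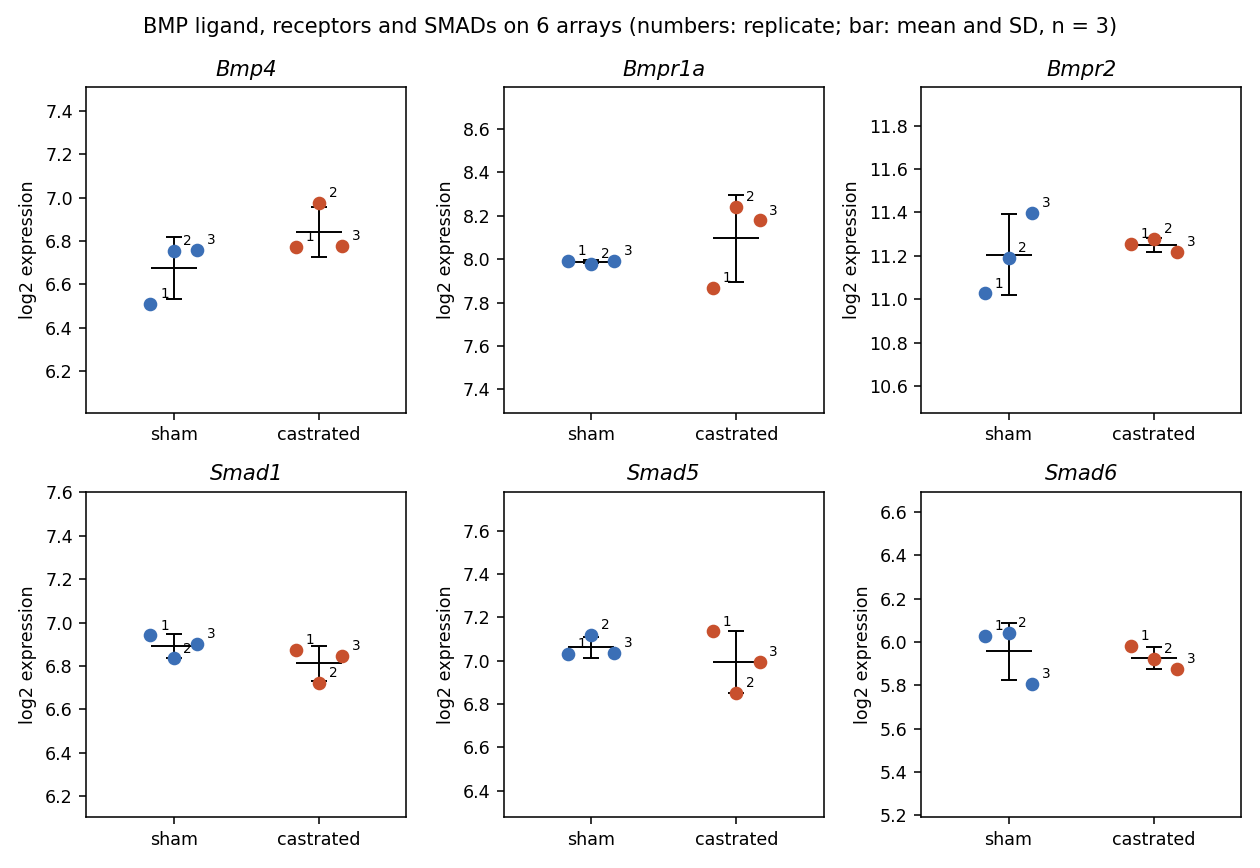
Deposited log2 expression of the BMP ligand, receptor and SMAD genes (y axis, each panel spanning the same height) in sham and castrated samples (x axis), with a numbered point per sample and the mean with SD (n = 3) as a bar. The groups overlap in every panel but that of Bmp4, where they are 0.014 apart.

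Over the 10 genes, 5 differences were above and 5 below 0, with a median of 0.013, against a median of −0.0056 over all genes. In limma with Benjamini-Hochberg adjustment 0 of the 10 passed an adjusted p of 0.05, a threshold that 0.0135% of all genes passed, and 1, Id1, had an unadjusted p under 0.05, as did 7.13% of all genes. The groups did not overlap with castrated samples higher for 2, Id1 and Bmp4, against 5.73% of all genes, and with castrated samples lower for 0, against 7.02%. Since the genes were chosen with this contrast known, nothing is read from these counts. For the 9 genes other than Id1 the differences ran from −0.08 for Smad1 to 0.17 for Bmp4, with a median absolute difference of 0.054, against 0.099 over all genes. Castrated sample 2 held the highest value of 4 of the 10 genes and the lowest of 2, and the median centred value of the 9 genes was 0.10 in that sample and between −0.032 and 0.019 in the others.

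**Figure D3:**
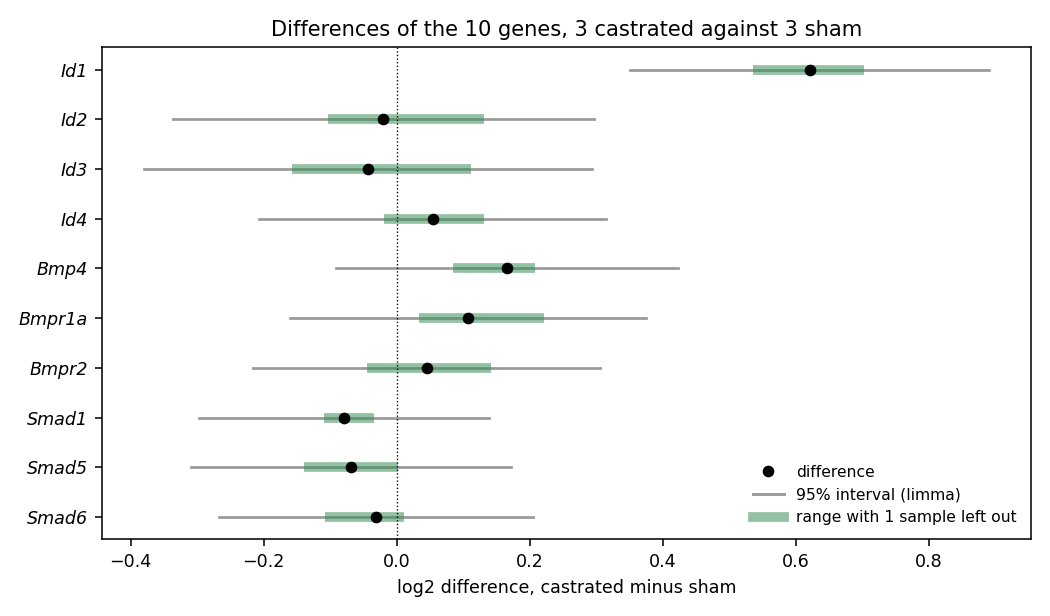
Log2 difference, castrated minus sham (x axis), for each of the 10 genes (y axis), with limma's 95% interval as a thin line and the range over the fits that leave out 1 sample as a thick bar. Id1, at 0.62, lies to the right of the other 9 genes, which sit between −0.08 and 0.17, and the thick bars of 6 genes cross 0.

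The genes whose values across the 6 arrays lay closest to those of Id1 were Stxbp4, Col14a1, Cyp4b1, Adamts9 and Cd274. Likeness was the root mean square distance between log2 values centred on the gene mean, over 10582 genes with a mean level at or above the median and a gene name. The distance from Id1 was 0.085 for Stxbp4, which encodes a syntaxin-binding protein, 0.10 for Col14a1, a fibril-associated collagen, 0.10 for Cyp4b1, a cytochrome P450, 0.10 for Adamts9, a matrix protease, and 0.11 for Cd274, the immune checkpoint ligand PD-L1. Stxbp4 read 6.16, 6.04 and 5.99 in sham and 6.48, 6.92 and 6.75 in castrated samples. Among the other 9 genes the distance from Id1 ran from 0.28 for Bmp4 to 0.39 for Smad5. With 6 arrays in 2 groups such a distance mainly follows the difference between the groups.

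The other genes of the pathway, listed by role and not for how they moved, gave no call. Of 59 listed genes 54 were measured by a probe set naming 1 gene, and 0 passed an adjusted p of 0.05 in limma, with the smallest adjusted p, 0.449, for Hamp. At an unadjusted p under 0.05 there were 5, with Chrdl1, Sost and Chrd higher and Bmpr1b and Hamp lower, against 7.13% of all genes. Chrd is named after its values were seen. The groups did not overlap for 3 with castrated samples higher and 6 with castrated samples lower, against 5.73% and 7.02% of all genes. The median difference of the 54 genes was −0.0028, with 26 above and 28 below 0.

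Among 11 other BMP ligand genes the differences ran from −0.22 for Bmp8a to 0.16 for Bmp5, named after its values were seen, with a median of 0.011. Bmp8a, a ligand gene known from germ cells, differed by −0.22 (standard error 0.12, limma adjusted p = 0.762). Gdf7, a growth and differentiation factor of the BMP family, was at 5.20 to 5.29 in the sham group and at 5.35 to 5.42 in the castrated group, so its groups did not overlap, and differed by 0.13 (limma adjusted p = 0.803). Of the 11 genes 7 had a mean under the median of all genes, where arrays measure little.

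Among 10 receptor and co-receptor genes the median difference was 0.028. Bmpr1b, a type I receptor gene, read 6.08, 6.17 and 6.15 in sham and 5.72, 5.81 and 5.83 in castrated samples. All castrated samples lay below all sham samples, a difference of −0.34 (standard error 0.094, limma adjusted p = 0.554), which ran from −0.37 to −0.31 with any sample left out. The activin and BMP type II receptor gene Acvr2a differed by 0.21 (limma adjusted p = 0.811), and by 0.39 without castrated sample 1 and 0.11 without castrated sample 2. Acvr1, another type I receptor gene, differed by −0.05, and the endothelial co-receptor gene Eng by 0.07, while the endothelial type I receptor gene Acvrl1 differed by −0.03, or by 0.0024 after quantile normalization. None of the 10 passed.

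Extracellular antagonists held the largest difference above 0 among the 54 genes. Chrdl1, a chordin-like BMP binder, read 5.32, 4.70 and 5.10 in sham and 5.83, 5.76 and 5.28 in castrated samples. Castrated sample 3 lay just under sham sample 1, so the groups overlapped by a narrow margin, and the mean level of Chrdl1 was at percentile 48.1 of all genes. The difference was 0.58 (standard error 0.19, limma adjusted p = 0.658), and ran from 0.41 without sham sample 2 to 0.76 without castrated sample 3. Sost, which encodes sclerostin and is best known from bone, read 4.52, 4.54 and 4.78 in sham and 4.95, 5.02 and 5.17 in castrated samples, a difference of 0.43 (standard error 0.11, limma adjusted p = 0.521). Its groups did not overlap, at a level under the median of all genes. Noggin, Nog, differed by −0.23 and follistatin, Fst, which binds activins and some BMPs, by −0.05, or by 0.021 without castrated sample 3. The median of the 13 genes was −0.00096, and 6 of them had a mean under the median of all genes.

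The other SMADs and intracellular regulators had a median of −0.10, which was −0.060 after quantile normalization, with 8 of 12 below 0. Smad7, the inhibitory SMAD shared by the BMP and TGF-beta branches, read 6.94, 6.51 and 6.91 in sham and 6.64, 6.45 and 6.47 in castrated samples, a difference of −0.26 (standard error 0.13, limma adjusted p = 0.745). It was −0.40 without sham sample 2. Skil, a corepressor of SMADs, was at 6.37 to 6.60 in the sham group and at 6.14 to 6.37 in the castrated group, and differed by −0.21 (limma adjusted p = 0.750). Its groups touched but did not overlap. Smad4, the shared partner SMAD, differed by 0.0060, or by −0.013 after centring on array medians. Smad9, the third SMAD of the BMP branch, differed by 0.02, with sham samples spread from 4.80 to 5.50. Its value was −0.0026 after quantile normalization, −0.18 without sham sample 1 and 0.17 without sham sample 2.

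Other known targets of BMP and SMAD signalling had no direction in common. Of 8 measured genes 4 differed upwards and 4 downwards, with a median of 0.029. Atoh8, a helix-loop-helix target in endothelium and liver, read 7.01, 6.98 and 6.99 in sham and 7.01, 6.97 and 7.31 in castrated samples, a difference of 0.10 that came from castrated sample 3 and was −0.0039 without it. Hey1, a transcriptional repressor shared with Notch signalling, differed by 0.06. Hamp, the liver hormone hepcidin, differed by −0.65 (standard error 0.15, limma adjusted p = 0.449), with non-overlapping groups, but its mean level was at percentile 3.74 of all genes. Msx2, a homeobox target, differed by −0.17, and by −0.018 without sham sample 2.

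**Figure D4:**
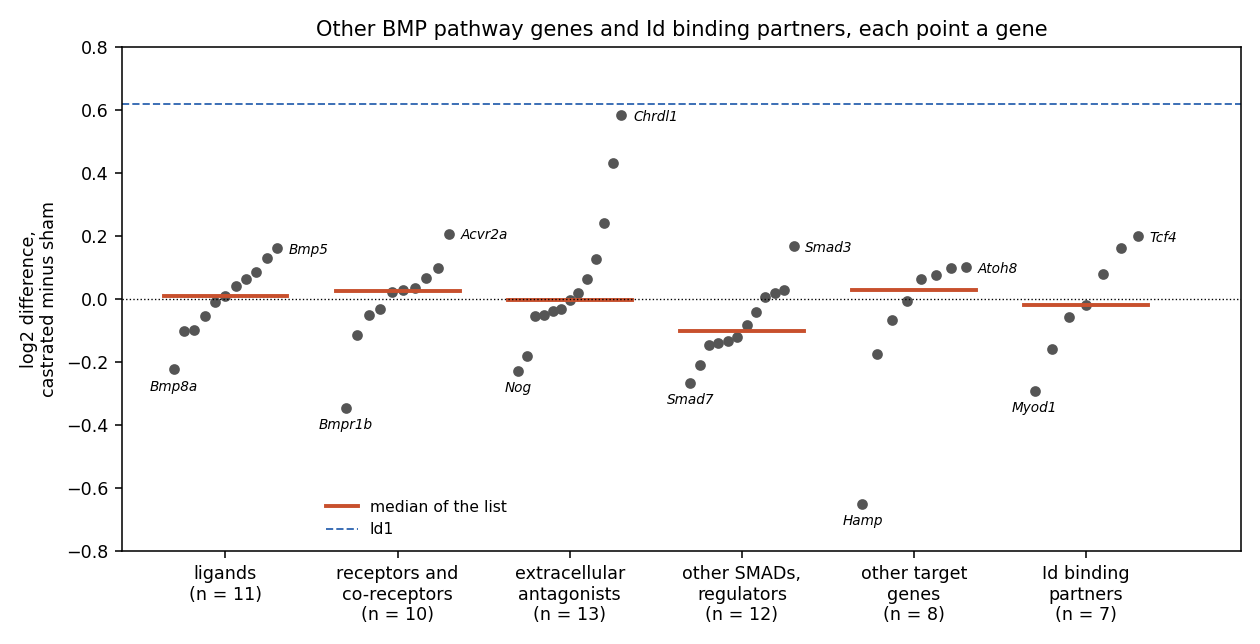
Log2 difference, castrated minus sham (y axis), of each other BMP pathway gene and each Id binding partner, by role (x axis), with the median of each list as a bar and the Id1 value of 0.62 as a dashed line. The medians lie between −0.10 and 0.029, and all points lie below the Id1 line.

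Of 7 genes for binding partners of Id proteins 0 passed the threshold in limma, against 0.0135% of all genes. Only 1, Myod1, had an unadjusted p under 0.05, against 7.13% of all genes, and 7 genes are too few to compare with that share. Their median difference was −0.018. The E protein genes Tcf3 and Tcf12 differed by −0.06 and −0.02, and Tcf12 by 0.025 after quantile normalization. Tcf4, also an E protein gene, read 8.16, 8.23 and 8.18 in sham and 8.29, 8.43 and 8.46 in castrated samples. Its groups did not overlap, and the difference was 0.20 (standard error 0.096, limma adjusted p = 0.724). Myod1, the myogenic factor that Id1 is known to restrain through E proteins, read 7.81, 7.75 and 7.54 in sham and 7.30, 7.59 and 7.34 in castrated samples. Castrated sample 2 lay above sham sample 3, and the difference was −0.29 (standard error 0.12, limma adjusted p = 0.691).

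Markers of other cell types were set beside Id1, because whole muscle holds vessels, connective tissue and fat. No marker value was at 0, which on this scale does not show that a marker was detected. Endothelial markers, of which Id1 is a known companion, did not separate the groups as a list, with a median difference of 0.017 over 10 genes and summed linear levels of 3884 to 4514 for sham and of 4120.0 to 4227 for castrated samples. Pecam1 differed by 0.04 and Cdh5 by 0.0055, or by −0.013 after centring on array medians. Cldn5 and Emcn, named after their values were seen, differed by −0.65 and 0.34 in opposite directions. Pericyte and smooth muscle markers had a median of 0.047 over 9 genes, with summed levels of 7089 to 8041 for sham and of 8088 to 8250.1 for castrated samples, and Rgs5 differed by 0.15, or by 0.027 without sham sample 1. These sums do not overlap, although the median centred values of the list do. As linear values the sums mostly follow Rgs5 and Abcc9, whose mean levels were at percentiles 99.5 and 98.9 of all genes. The groups overlapped for each marker of this list. Abcc9 is named after its values were seen. The part of these cells in the Id1 difference was not tested.

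The tendon, adipocyte and satellite cell marker lists had median differences of 0.48, 0.22 and 0.22, the direction in which Id1 differed. Of 7 tendon markers 6 were above 0 and 4 had an unadjusted p under 0.05, against 7.13% of all genes, with summed levels of 1624 to 3059 for sham and of 2644 to 3246 for castrated samples, which overlap. The tendon proteoglycan gene Kera differed by 0.89, more than Id1, and the tendon transcription factor gene Mkx by 0.52. The groups did not overlap for either, and the mean level of Mkx was at percentile 42.3 of all genes. Scx, another tendon transcription factor gene and the only marker of the list below 0, differed by −0.043 with overlapping groups. Kera, Mkx and Scx are named after their values were seen. Tnmd, the tendon marker tenomodulin, differed by 0.48, and by 0.21 without sham sample 3. Of 6 adipocyte markers 5 were above 0. The summed levels of the list, 1903 to 2341 for sham and 2504 to 2665 for castrated samples, do not overlap. Being linear, these sums mostly follow Fabp4, whose mean level was at percentile 99.0 of all genes. The next brightest marker, Cidec, was at percentile 58.9, and 3 of the 6 had a mean under the median of all genes. Fabp4 differed by 0.28 and was the only marker of the list whose groups did not overlap. Fabp4 and Cidec are named after their values were seen. Adipoq, the fat cell hormone adiponectin, differed by 0.27, and by 0.13 without sham sample 2. Of 5 satellite cell markers 4 were above 0, and the list's median was 0.033 without castrated sample 3 and 0.055 without sham sample 3. Its stem cell factor gene Pax7 differed by 0.03, or by −0.057 without castrated sample 3. Calcr, Chodl and Vcam1 differed by 0.29, 0.22 and 0.22, with the mean level of Calcr at percentile 39.1 of all genes. Cdh15, the only marker of the list below 0, differed by −0.067 with overlapping groups. Calcr, Chodl, Vcam1 and Cdh15 are named after their values were seen. The groups did not overlap for Vcam1, and the summed levels, 310.4 to 357.6 for sham and 318.0 to 422.4 for castrated samples, did. The part of these cell types in the Id1 difference was not tested. None of these markers passed over all genes, where the smallest limma adjusted p was 0.373 for the tendon, 0.685 for the adipocyte and 0.696 for the satellite cell list.

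The remaining marker lists overlapped between the groups in their summed levels. These were 3725 to 4864 for sham and 3824 to 4546 for castrated samples in the case of 5 fibro-adipogenic progenitor markers, whose receptor gene Pdgfra differed by −0.22, or by −0.082 without sham sample 1. For 6 macrophage markers the sums were 572.2 to 1087 for sham and 528.1 to 866.2 for castrated samples, and Adgre1 differed by −0.07, or by 0.031 without sham sample 3. Schwann cell markers, 3 measured, had sums of 301.9 to 323.9 and 302.6 to 372.3. The 9 fibre markers had sums of 74353 to 82331 and 75287 to 79059.

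**Figure D5:**
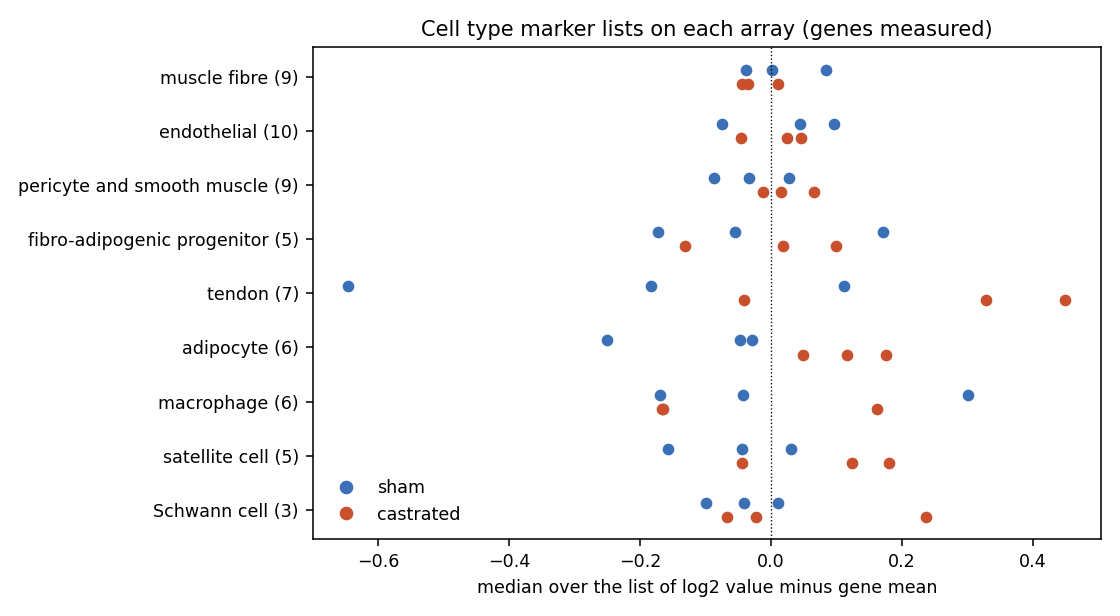
Median over each cell type marker list (y axis, genes measured in brackets) of the log2 value minus the gene's mean over the 6 arrays (x axis), with a point per array. Sham and castrated points separate only for the adipocyte list, at −0.25 to −0.029 against 0.049 to 0.18, and the tendon list spreads most, from −0.65 to 0.45.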

How the data were processed

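The authors deposited log2 expression values per probe set from 1 Affymetrix whole-transcript array per sample. The submitters' processing notes name Partek, with no version. Its background correction, summarization and normalization, and a genome build, are not given here in any source used. Where arrays are normalized, this can make them alike and compress differences of dim and bright genes, which was not tested here.

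The table holds 41345 probe sets, of which 23521 name 1 gene in the platform annotation, 1814 name several and 16010 none. Symbols were updated through Entrez identifiers for 23328 of them against a gene table of assembly GRCm38.p6. The probe set with the highest mean stood for each of 22180 genes, with no filter on dim genes. Probe sets naming several genes were not used.

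Groups are those of the sample titles, 3 sham and 3 castrated, numbered by the titles. Castrated was compared with sham in limma 3.58.1 under R 4.3.3 (lmFit and eBayes, no covariate), and p-values were adjusted by Benjamini-Hochberg across the 22180 genes, with 0.05 as threshold. The procedure was tested on simulated data. There a log2 change of 0.5 was called for 24% of 50 genes and a change of 1 for 98% of 50. The labels name a mouse per sample and state nothing more on independence, so the p-values rest on the spread between these samples alone. The 10 genes and all lists were chosen with earlier results of these data known.

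Genes named are the 10, the 2 of each pathway and partner list with the smallest p, a set of pathway genes and markers fixed by name, and the 5 genes nearest to Id1, and any other is marked as named after its values were seen. A marker of the set fixed by name is not reported here. Summed marker levels are sums of values taken back from log2 to linear. Same-numbered samples were checked for pairing, and their deviations from the group means correlated at 0.076, 0.033 and 0.047, so they were not treated as pairs. Alternatives were other scalings, filters, probe set rules, variance priors, a threshold of 0.1, the replicate block and leaving out each sample. Promoters were read from a RefSeq table, without its part after the start. Figures were drawn with matplotlib 3.10.9.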

Additional observations from a re-analysis of the deposited data

How the results depend on the processing

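None of the 10 genes and none of the 54 other pathway genes passed the threshold under any of the 15 alternatives. The count over all genes was 3, and it was 9 and 16 when genes of mean level under percentile 25 and percentile 50 were left out, 10 with a trended robust prior, 0 without moderation, and 3 to 4 with a sample left out. Scaling moved the median of all genes by at most −0.019. The Id1 difference of 0.62 cannot change under the filters, which only remove other genes, and it was 0.60 to 0.66 under the other scalings. Quantile normalization turned the sign for Id2 (0.010), Acvrl1 (0.0024), Smad9 (−0.0026) and Tcf12 (0.025), and centring on array medians did so for Smad4 (−0.013) and Cdh5 (−0.013). With a sample left out, differences that changed sign ran from −0.10 to 0.13 for Id2, from −0.16 to 0.11 for Id3, from −0.020 to 0.13 for Id4, from −0.044 to 0.14 for Bmpr2, from −0.14 to 0.0027 for Smad5, from −0.11 to 0.011 for Smad6. Of the other named genes they ran from −0.11 to 0.010 for Acvrl1, from −0.10 to 0.021 for Fst, from −0.011 to 0.028 for Smad4, from −0.18 to 0.17 for Smad9, from −0.0039 to 0.17 for Atoh8, from −0.13 to 0.0093 for Tcf3. The rest ran from −0.084 to 0.065 for Tcf12, from −0.017 to 0.14 for Pecam1, from −0.049 to 0.083 for Cdh5, from −0.26 to 0.031 for Adgre1, from −0.057 to 0.10 for Pax7, from −0.0061 to 0.035 for Myh4. The cause of these changes was not tested, and each of these differences was smaller than its standard error.

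With the replicate number as a block, 2 genes passed over all genes, and 0 of the 10 and 0 of the 54 did. Each sample correlated best with the same number in the other group, at 0.076, 0.033 and 0.047, a hint from the data and not from the design. Dim genes such as Hamp, and the number of arrays, limit what could be detected.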
